A study of Mus musculus with 16 samples.

Results

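Selenocysteine synthesis and insertion machinery is described here through 8 genes in mouse liver, namely Scly, Sephs1, Sephs2, Pstk, Sepsecs, Trnau1ap, Secisbp2 and Eefsec. They were chosen by gene name, as the genes known to make selenocysteine on its tRNA and to place it in proteins, and they are 8 of the 57010 genes in the expression table. Liver RNA was sequenced from 16 male wild-type C57BL/6J mice, and no group carried an altered allele. The study's methods give an age of 8 to 12 weeks, before the 3 months of diet as the study's scheme is drawn, so the mice were older when the liver was taken. The control group had neither agent, the Cd group received CdCl2 at 1.25 mg/kg intraperitoneally on each of the last 7 days, the Se group ate selenomethionine (SeMet) at 2 ppm for 3 months, and the Cd+Se group had both. Each group held 4 mice, and the mice are called by the numbers in their labels: control mice 27 to 30, Cd mice 1, 2, 5 and 6, Cd+Se mice 13 to 16, and Se mice 39, 40, 41 and 44.

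Selenocysteine is built on its own tRNA rather than loaded onto it ready-made. Serine is first attached to the tRNA, PSTK phosphorylates it, and SEPSECS exchanges the phosphate for selenium, using selenophosphate that SEPHS2 makes. SCLY returns selenium to this route by breaking down free selenocysteine. At the ribosome, SECISBP2 binds the SECIS hairpin of a selenoprotein mRNA and EEFSEC brings the charged tRNA to a UGA codon, which would otherwise end translation. Liver is the main source of SELENOP, the plasma protein that carries selenium to other tissues.

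SEPHS2 is itself a selenoprotein, while its paralog SEPHS1 is not. The place where the genes differ is shown because it sets apart the only member that also depends on the machinery. The following 60 bases come from the GENCODE M21 transcripts, with capitals for the selenocysteine codon TGA of Sephs2 and for the codon aligned to it in Sephs1. The Sephs2 window is chr7:127273701-127273760 on the minus strand of GRCm38, in its single exon, with the TGA at codon 63 of 452. The Sephs1 window is chr2:4884470-4884529 on the plus strand, with the aligned codon at position 29 of 392.
Sephs2: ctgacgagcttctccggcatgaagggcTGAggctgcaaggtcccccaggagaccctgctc
Sephs1: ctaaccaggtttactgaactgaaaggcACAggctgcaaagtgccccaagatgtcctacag
Over 391 aligned codons, 29.4% had the same 3 bases in both genes, and 68.5% of the aligned coding bases were the same. Of the 24 genes with an annotated selenocysteine codon in this annotation, Sephs2 was the only member.

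The 8 genes lie on 7 chromosomes, and their positions are given in GRCm38 from GENCODE M21, matched by Ensembl identifier, since the build behind the expression values is uncertain. Scly spans chr1:91298338-91321075 on the plus strand, Sephs1 spans chr2:4881564-4910557 on the plus strand and Sephs2 spans chr7:127271879-127274055 on the minus strand. Pstk spans chr7:131371141-131394482 on the plus strand, Sepsecs spans chr5:52640087-52669708 on the minus strand and Trnau1ap spans chr4:132311763-132329538 on the minus strand. Secisbp2 spans chr13:51651697-51684044 on the plus strand and Eefsec spans chr6:88257334-88446539 on the minus strand. Exons of 4 of these genes overlap a gene on the opposite strand, and the largest overlap is 3392 bases of Pstk with Ikzf5. Ikzf5 was listed at 1.92 to 3.92 TPM, a unit that scales transcripts by length and library total, against 6.15 to 12.99 TPM for Pstk. The strand setting was not stated, so reads of the overlapping parts cannot be told apart. The other overlapping genes reached at most 0.23 TPM.

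Before the comparisons, a few properties of the libraries bear on what follows. TPM are scaled to the same total in every library and keep no depth, so the sequencing depth is unknown and precision rests on the 4 mice per group. The median log2(TPM + 1) over the 11766 genes tested, those averaging 1 TPM or more, was 2.68 in Cd mouse 5 and 2.90 in Cd mouse 6, against 3.06 to 3.36 in the other 14 libraries, the highest being Se mouse 40. Cd mouse 5 had the lowest level of the Cd mice for 8 of 8 members, and Se mouse 40 had the highest level of the Se mice for 7 of 8. Metallothionein Mt1, which binds Cd, lay at 50.9 to 221 TPM in the control group and at 64.3 to 431 TPM with Se alone, but at 3178 to 4899 TPM with Cd and at 3621 to 6070 TPM with Cd and Se together, so every Cd-injected mouse was above every mouse that was not. Of the hepatocyte markers 0 of 6 passed the test in any comparison, and their summed level ran from 61515 to 84075 TPM in the control group, 40648 to 68127 with Cd, 52749 to 73584 with both agents and 61719 to 113613 with Se, none of the markers being at 0. All 5 Kupffer cell markers fell in Cd against control, from a summed 96.9 to 119 TPM to 30.7 to 51.9 TPM, and 3 of the 4 neutrophil markers tested rose, from a summed 6.58 to 16.7 TPM to 32.5 to 41.3 TPM. Of the other lists, 2 of 5 endothelial and 1 of 3 stellate cell markers fell and 2 of 3 monocyte markers rose. The 1 cholangiocyte marker tested did not pass. In Cd against control 24.9% of all genes tested passed by falling and 5.82% by rising. The 4 monocyte markers listed summed to 43.2 to 59.7 TPM in the control group and 37.9 to 56.7 TPM with Cd. The part of these cell types in the results below was not tested, and in whole liver fewer cells of a type and less RNA per cell cannot be told apart.

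The levels in control liver spanned a wide range. Per-length levels in TPM placed Sephs2 far above the rest, at 374 ± 8.33 TPM (SD, n = 4), followed by Scly at 35.6 ± 2.18 and Sepsecs at 17.8 ± 1.34. Trnau1ap stood at 13.3 ± 0.522 TPM, Sephs1 at 10.49 ± 1.11, Eefsec at 9.77 ± 0.495, Pstk at 9.48 ± 1.05 and Secisbp2 at 7.15 ± 0.644. The ranges of Sephs1 and Eefsec overlapped, as did those of Eefsec and Pstk, whereas each other neighbouring pair was apart. Sephs2 was above Scly, and Scly above the next gene, in 16 of 16 libraries. Sephs2 alone made up 77.9 to 78.6% of the summed TPM of the 8 genes in control mice and 73.9 to 76.8% in Se mice. It made up 76.9 to 79.9% in Cd mice and 75.4 to 81.6% in Cd+Se mice, on both sides of the control range. These shares were not tested. In the Cd group Trnau1ap, at 12.9 ± 0.951 TPM, stood above Sepsecs, at 11.9 ± 1.45 TPM, and from Trnau1ap downwards every neighbouring pair overlapped.

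**Figure D1:**
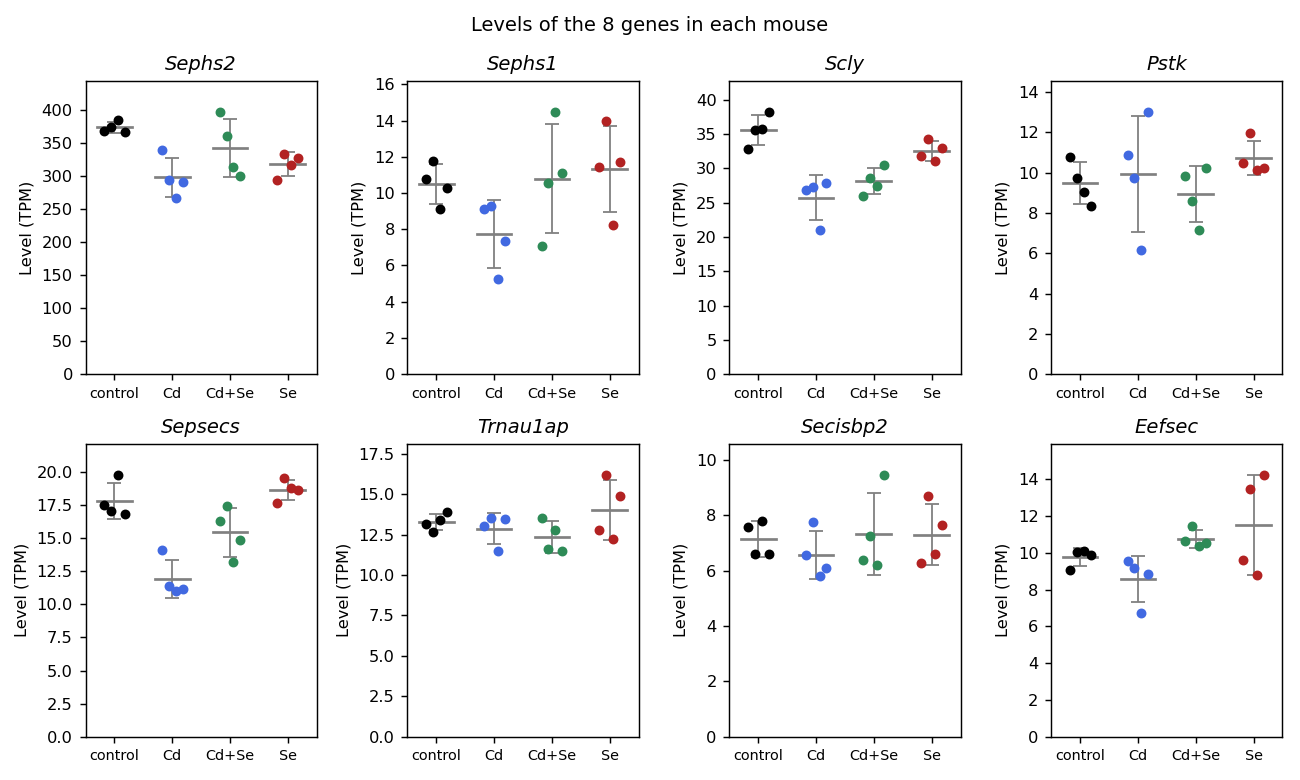
TPM (vertical axes, from 0) of the 8 genes in each of the 16 mice, with 4 points per group for control, Cd, Cd+Se and Se. Grey lines are the group mean and bars are the SD. In Scly, Sepsecs and Sephs2 all 4 Cd mice lie under all 4 control mice (27.8% of all genes tested do so), and Cd mouse 5 (the blue point just right of the group's centre) is the lowest Cd mouse in each of the 8 panels.

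Cd exposure was first compared with no exposure in mice on the plain diet. Sepsecs, Scly and Sephs2 fell, and the other 5 members did not pass the test. All 4 Cd mice were under all 4 control mice for each of these 3, as they were for 27.8% of all genes tested. Among all 11766 genes tested, 30.8% passed the limma test in this comparison and 24.9% did so by falling, and the 3 of 8 members, all lower, are read against these shares. The median log2 difference was -0.25 over the members and -0.17 over all genes tested.

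Sepsecs, the enzyme of the last step on the tRNA, was at 17.5, 17.0, 19.7 and 16.8 TPM in control mice 27, 28, 29 and 30 and at 14.1, 11.4, 11.0 and 11.1 TPM in Cd mice 1, 2, 5 and 6. The Cd mean was 66.9% of the control mean, and the highest Cd mouse, mouse 1, was still below the lowest control mouse. The log2 difference was -0.55 (SE 0.107, limma adjusted p = 0.00187).

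Scly, which recycles selenium, was at 32.8, 35.6, 35.7 and 38.2 TPM in the control mice and at 26.9, 27.3, 20.95 and 27.9 TPM in the Cd mice. The groups did not overlap, and Cd mouse 5 stood below the other 3 Cd mice, which lay close together. The log2 difference was -0.46 (SE 0.102, limma adjusted p = 0.00397), and without Cd mouse 5 it was -0.37 (adjusted p = 0.00745).

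Sephs2, which makes the selenophosphate, was at 369, 374, 386 and 367 TPM in the control mice and at 339, 294, 268 and 292 TPM in the Cd mice. The control mice were tightly grouped and the Cd mice spread over a wider range below them. The log2 difference was -0.33 (SE 0.105, limma adjusted p = 0.0264). The call was lost when the library medians were made equal (log2 difference -0.11, adjusted p = 0.378) and without Cd mouse 5 (-0.28, adjusted p = 0.0653), Cd mouse 2 (adjusted p = 0.0514), Cd mouse 6 (adjusted p = 0.0544), control mouse 28 (adjusted p = 0.0576) or control mouse 29 (adjusted p = 0.0687).

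Sephs1, the paralog without selenocysteine, was at 10.8, 11.8, 9.10 and 10.3 TPM in the control mice and 9.12, 9.30, 5.27 and 7.36 TPM in the Cd mice. Cd mice 1 and 2 lay within the control range and mice 5 and 6 under it. Its log2 difference of -0.41 had the widest error of the 8 (SE 0.200, limma adjusted p = 0.127).

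Pstk, the kinase acting just before SEPSECS, was at 10.8, 9.72, 9.05 and 8.33 TPM in the control mice and at 10.9, 9.74, 6.15 and 12.99 TPM in the Cd mice. The Cd mice lay on both sides of the control range, with a log2 difference of 0.03 (SE 0.169, limma adjusted p = 0.920). Trnau1ap, which binds the tRNA, was at 12.6 to 13.9 TPM in control mice and 11.5 to 13.5 TPM in Cd mice (log2 difference -0.04, SE 0.104, adjusted p = 0.778).

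The insertion factors did not pass the test. Secisbp2 was at 6.59 to 7.81 TPM in control mice and 5.82 to 7.77 TPM in Cd mice (log2 difference -0.11, SE 0.136, limma adjusted p = 0.561). Eefsec was at 9.04, 10.1, 10.1 and 9.90 TPM in the control mice and 9.58, 9.15, 6.73 and 8.83 TPM in the Cd mice (log2 difference -0.18, SE 0.140, adjusted p = 0.351). Secisbp2l, the paralog of Secisbp2, was at 13.8 to 16.4 TPM in control mice and 9.66 to 15.6 TPM in Cd mice.

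Because the fall of the all-gene median by 0.17 is not small beside these differences, the members were also compared after quantile normalization and with all library medians made equal. Sepsecs fell by 0.36 and by 0.33 on the log2 scale under these scalings and Scly fell by 0.31 and by 0.24, and both stayed past the threshold in 15 of 15 alternatives. Secisbp2, Eefsec and Trnau1ap changed sign under both, to 0.11, 0.03 and 0.14 after quantile normalization, and none passed the threshold. Over all genes, 685 rose and 2934 fell with TPM as deposited, against 1710 and 2276 after quantile normalization and 2260 and 1804 with equal medians. Sephs1 and Pstk kept their sign under both scalings without passing.

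**Figure D2:**
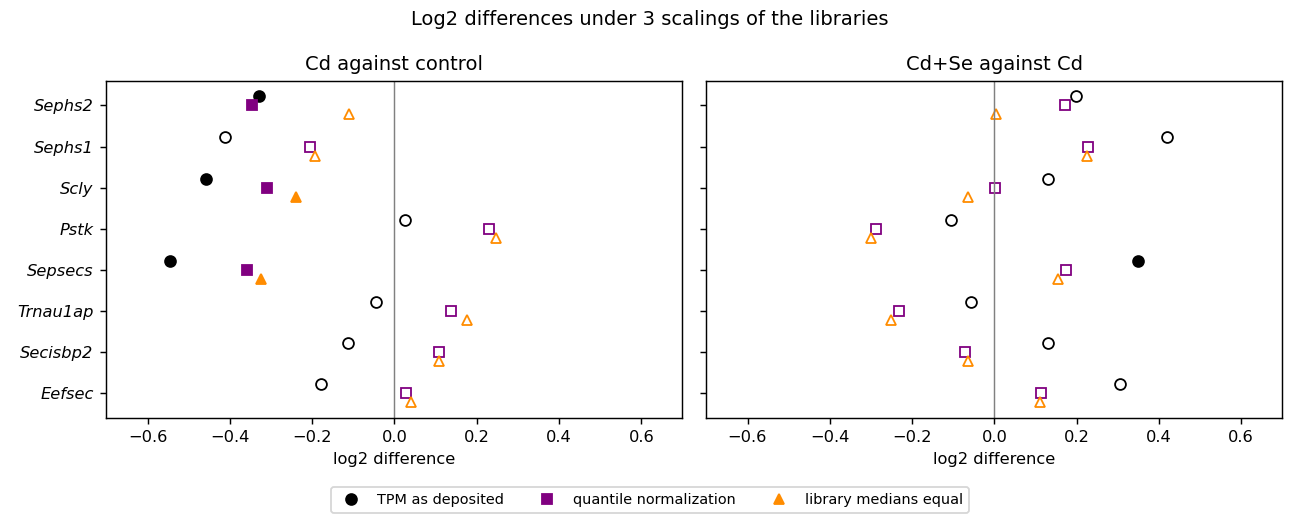
Log2 differences of the 8 genes in Cd against control (left) and Cd+Se against Cd (right) with TPM as deposited (circles), after quantile normalization (squares) and with library medians made equal (triangles). Filled symbols mark a limma adjusted p under 0.05. On the left Sepsecs and Scly are filled under all 3 scalings and Sephs2 under 2 of them, and on the right only Sepsecs with TPM as deposited is filled.

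Cd+Se was then compared with Cd, which addresses the effect of SeMet in mice given Cd. Sepsecs rose, and the other 7 members did not pass the test. Of all genes tested, 15.9% passed and 13.6% rose, and the 1 of 8 members is read against these shares. The shares depended on the scaling. Over all genes, 1600 rose and 276 fell with TPM as deposited. After quantile normalization 1170 rose and 908 fell, and with equal medians 937 rose and 1272 fell. With the fit limited to these 2 groups 47 rose and 19 fell. The member median was 0.16 and the all-gene median 0.17 on the log2 scale. This comparison shares its Cd mice with the one above, so a low Cd mouse moves both. Of the cell type markers, Adgre1 (1 of 5 Kupffer cell markers, log2 difference 0.78), Lyve1 (1 of 5 endothelial markers, 1.09) and Lyz2 (1 of 3 monocyte markers, 0.83) rose in this comparison, while 0 of 6 hepatocyte, 0 of 4 neutrophil and 0 of 3 stellate cell markers passed.

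Sepsecs was at 16.3, 17.4, 13.2 and 14.8 TPM in Cd+Se mice 13, 14, 15 and 16, against 11.0 to 14.1 TPM in the Cd mice. Mouse 15 lay within the Cd range and the other 3 above it, and the Cd+Se mean was 86.8% of the control mean. The log2 difference was 0.35 (SE 0.107, limma adjusted p = 0.0384). The call held in 5 of 15 alternatives. It was lost under both other scalings (0.17, adjusted p = 0.228, and 0.15, adjusted p = 0.265), without the filter on low values (adjusted p = 0.0517), with the fit limited to these 2 groups (adjusted p = 0.148), and without Cd mouse 2 (adjusted p = 0.0739), 5 (0.0908) or 6 (0.0847) or Cd+Se mouse 13 (0.0713), 14 (0.119) or 16 (0.0607).

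Scly was at 26.0, 28.6, 27.5 and 30.55 TPM in the Cd+Se mice, near the 26.9 to 27.9 TPM of Cd mice 1, 2 and 6. Their mean was 79.1% of the control mean, a pair of groups that was not tested. Its log2 difference from Cd was 0.13 (SE 0.102, limma adjusted p = 0.394).

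Sephs2 was at 397, 361, 315 and 301 TPM in the Cd+Se mice, from above the control range to within the Cd range. Its log2 difference from Cd was 0.20 (SE 0.105, limma adjusted p = 0.198). Sephs1 was at 7.06, 10.6, 14.45 and 11.1 TPM, the widest spread of a member in this group relative to its mean. Its log2 difference was 0.42 (SE 0.200, adjusted p = 0.154), and it passed only without Cd+Se mouse 13 (0.59, adjusted p = 0.0467).

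Eefsec was at 10.6, 11.45, 10.4 and 10.54 TPM in the Cd+Se mice, and all 4 were above all 4 Cd mice. Groups were apart in the higher direction for 16.1% of all genes tested in this comparison, and the limma test of Eefsec did not pass (log2 difference 0.31, SE 0.140, adjusted p = 0.141). Pstk at 7.16 to 10.3 TPM (-0.11, adjusted p = 0.698), Trnau1ap at 11.5 to 13.5 TPM (-0.06, adjusted p = 0.737) and Secisbp2 at 6.20 to 9.45 TPM (0.13, adjusted p = 0.532) overlapped the Cd mice. Under the other scalings the sign of Secisbp2 turned, and that of Scly turned with equal medians (-0.06).

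**Figure D3:**
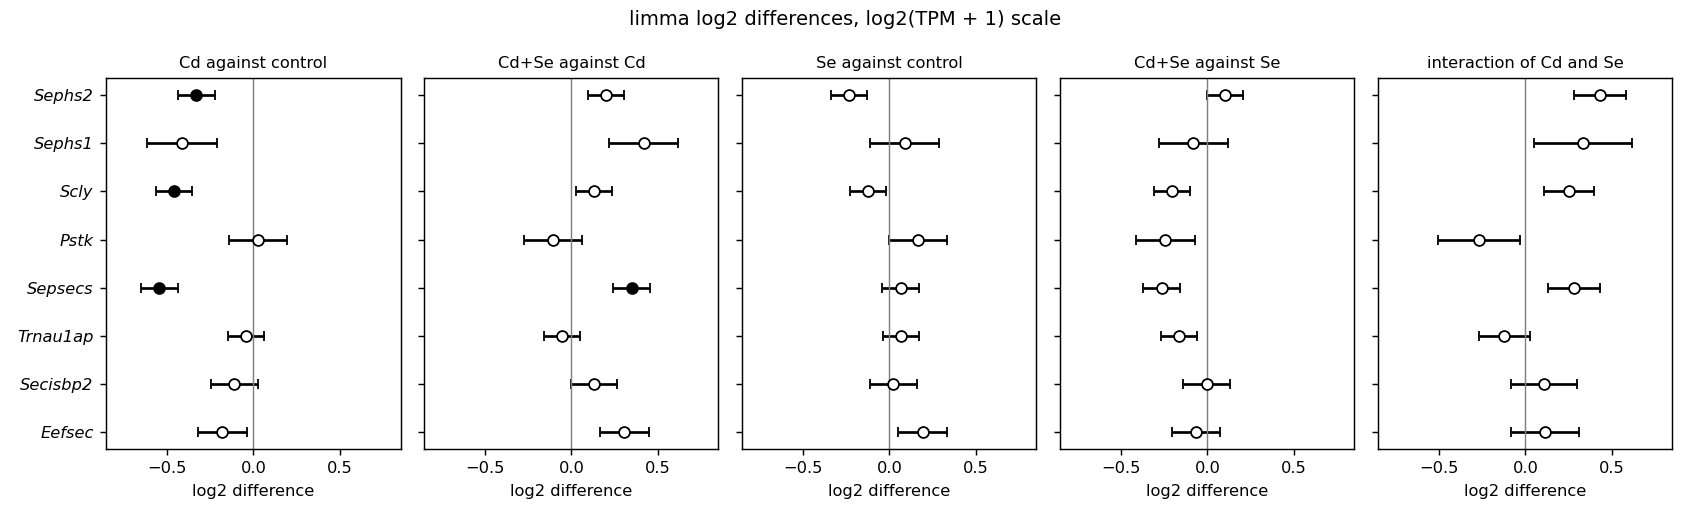
Limma log2 differences (horizontal axes, log2(TPM + 1) scale) of the 8 genes with bars of 1 SE, in 5 comparisons. Filled circles mark an adjusted p under 0.05, which holds for Sephs2, Scly and Sepsecs in Cd against control and for Sepsecs in Cd+Se against Cd, with none in the other 3.

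SeMet alone, Se against control, was the next comparison. No member passed the test, as for 0 of all 11766 genes, of which 454 (3.86%) had an unadjusted p under 0.05. Sephs2 was the member furthest from its controls relative to the error. It was at 294, 334, 318 and 328 TPM in Se mice 39, 40, 41 and 44, each under all 4 control mice, with a mean at 85.1% of the control mean. Groups were apart in the lower direction for 1.79% of all genes tested. The log2 difference of Sephs2 was -0.23 (SE 0.105, limma unadjusted p = 0.0411, adjusted p = 1) and ran from -0.28 to -0.20 over 15 alternatives, none past the threshold.

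The other members overlapped between Se and control mice. Scly was at 31.1 to 34.4 TPM in Se mice against 32.8 to 38.2 TPM, and Sepsecs at 17.7 to 19.5 TPM against 16.8 to 19.7 TPM. Eefsec ran from 8.78 to 14.2 TPM in Se mice, with mice 40 and 44 above all control mice and mouse 41 below them. Pstk, at 10.1 to 11.97 TPM, had a log2 difference of 0.16 (SE 0.169), and those of Trnau1ap (0.06), Sephs1 (0.09) and Secisbp2 (0.02) were smaller than their errors.

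Cd+Se against Se compared Cd with no Cd in mice fed SeMet. No member passed the test, and 0.714% of all genes did, while 10.9% had an unadjusted p under 0.05. All 4 Cd+Se mice were below all 4 Se mice for Sepsecs (log2 difference -0.26, SE 0.107, limma unadjusted p = 0.0253, adjusted p = 0.355) and for Scly (-0.20, SE 0.102, unadjusted p = 0.0621, adjusted p = 0.488). Groups were apart in the lower direction for 3.68% of all genes tested. Sephs2 was 301 to 397 TPM in Cd+Se mice and 294 to 334 TPM in Se mice, which overlapped (0.10, adjusted p = 0.807). In the same comparison 4 of 4 neutrophil, 2 of 3 monocyte and 1 of 5 endothelial markers rose and 3 of 5 Kupffer cell markers fell, with 0 of 6 hepatocyte markers past the test.

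Whether the difference with Cd itself depended on SeMet was tested by the interaction. It passed for 1.04% of all genes tested and for 0 of 8 members, while 21.3% of all genes had an unadjusted p under 0.05. The interaction was 0.43 on the log2 scale for Sephs2 (SE 0.149, limma unadjusted p = 0.0103, adjusted p = 0.124), 0.33 for Sephs1 (SE 0.282, adjusted p = 0.517), 0.28 for Sepsecs (SE 0.151, adjusted p = 0.293) and 0.25 for Scly (SE 0.145, adjusted p = 0.321). It was -0.27 for Pstk (SE 0.239, adjusted p = 0.532). A different response of the members to Cd with and without SeMet was thus not shown.

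The ratio of TPM of a pair of genes in the same library does not change when that library is multiplied by a constant. With 1 added to each TPM, as in the tests below, this holds only approximately. Sepsecs over Pstk was 1.89 ± 0.254 (SD, n = 4) in the control group, 1.28 ± 0.390 with Cd, 1.74 ± 0.248 with Cd and Se and 1.74 ± 0.104 with Se. Cd mice 1, 2 and 6 were below all control mice and mouse 5 was within their range. On the log2(TPM + 1) scale the log2 ratio differed by -0.57 between Cd and control and by 0.45 between Cd+Se and Cd, each with an exact two-sided permutation p of 0.0857 (adjusted 0.457 over 12 tests). Sephs2 over Sephs1 was 36.0 ± 4.53, 39.8 ± 8.03, 34.8 ± 15.1 and 29.04 ± 6.61 in control, Cd, Cd+Se and Se mice. Secisbp2 over Secisbp2l had means of 0.474, 0.531, 0.543 and 0.460 in the same order. None of the 12 tests reached 0.05, where the smallest exact p that 4 mice against 4 allow is 0.0286. After adjustment over the 12 tests a lone result at this smallest p would not pass, so these tests could decide little.

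**Figure D4:**
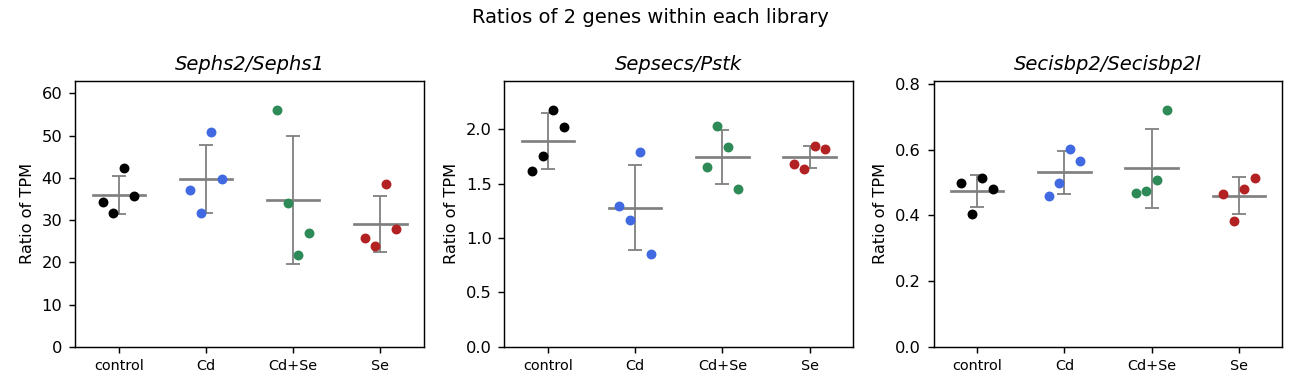
Ratios of TPM within each library for 3 gene pairs, with 4 mice per group, grey lines for means and bars for the SD, axes from 0. Sepsecs over Pstk has a mean of 1.28 in Cd mice against 1.89 in control mice, with 1 Cd mouse inside the control range.

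The summed TPM of the 8 members, given as a description, was 477 ± 9.29 (SD, n = 4) in the control group, 382 ± 38.6 with Cd, 437 ± 41.7 with Cd and Se, and 424 ± 26.0 with Se. Without Sephs2 the sum was 104 ± 1.36, 83.4 ± 10.7, 93.7 ± 3.83 and 106 ± 10.1 TPM in the same order. The selenoprotein genes, which the machinery serves, summed to 6460 ± 244, 5583 ± 498, 6244 ± 369 and 6541 ± 454 TPM. Selenop alone averaged 3677, 2600, 3579 and 3711 TPM in the same order, so these sums largely follow that gene. The lower sum in Cd than in control mice depended on the scaling. With equal library medians the Cd and control means were 427 and 458 TPM for the members. For the selenoprotein genes they were 6242 and 6203 TPM, which turned their order. The higher sums in Cd+Se than in Cd mice depended on it too. With equal medians the Cd and Cd+Se means were 426.7 and 427.1 TPM for the members and 93.6 and 91.4 TPM without Sephs2. For the selenoprotein genes these 2 means were 6242 and 6099 TPM, again in turned order.

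Genes that feed or assist the machinery were read from a list of 19, of which 16 could be tested. It holds the enzyme that puts serine on the tRNA (Sars), tRNA modifiers, factors of SECIS binding and export, and nonsense-mediated decay factors. The list further holds enzymes of the methionine cycle and transsulfuration (Mat1a, Ahcy, Cbs and Cth), as well as Prdx6, Lrp2 and Lrp8. In Cd against control 5 of the 16 fell and 0 rose, against 30.8% of all genes called, with a list median of -0.19 on the log2 scale beside -0.17 over all genes. After quantile normalization 2 rose and 3 fell, and with equal medians 4 rose and 2 fell.

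Mat1a, the liver enzyme making S-adenosylmethionine, was at 1082, 964, 1137 and 889.6 TPM in control mice and at 553, 516, 456 and 607 TPM in Cd mice. It fell by 0.93 on the log2 scale (limma adjusted p = 0.00259). In Cd+Se mice it was at 987, 828, 1685 and 805 TPM, all above the Cd mice, with mouse 15 far above the other 3, and it rose against Cd by 0.95 (adjusted p = 0.00863), a call lost only when the fit was limited to these 2 groups. Upf1, a helicase of nonsense-mediated decay, which can degrade selenoprotein mRNAs at their UGA codons, was at 12.3 to 14.4 TPM in the control group, 7.19 to 9.54 TPM with Cd and 10.47 to 13.8 TPM with both agents. It fell by 0.62 with Cd (adjusted p = 0.00145) and rose by 0.45 in Cd+Se against Cd (adjusted p = 0.0191). The first call held in 15 of 15 alternatives, and the second was lost with the fit limited to these groups and without Cd mouse 5, Cd+Se mouse 14 or Cd+Se mouse 16.

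Ahcy, which hydrolyses S-adenosylhomocysteine, fell by 0.60 (limma adjusted p = 0.0168), with 750.2 to 869.5 TPM in control mice and 505.5 to 593 TPM in Cd mice. Its call was lost with equal medians (adjusted p = 0.136). The nuclear exporter Xpo1 fell by 0.53 (adjusted p = 0.0252) and the cap-modifying enzyme Tgs1 by 0.42 (adjusted p = 0.0378), and both calls were lost under either other scaling, without the filter, without Cd mouse 5, and without control mouse 27, 28 or 29. That of Xpo1 was also lost without Cd mouse 6, and that of Tgs1 without Cd mouse 2 or control mouse 30. Tgs1, at 3.61 to 4.96 TPM in Cd mice and 5.59 to 9.90 TPM in Cd+Se mice, rose by 0.52 in Cd+Se against Cd (limma adjusted p = 0.0253). This call held in 8 of 15 alternatives. It was lost under either other scaling, without the filter and with the fit limited to these 2 groups. Leaving out Cd mouse 5 or Cd+Se mouse 15 or 16 also lost it. With Mat1a and Upf1, Tgs1 made 3 of 16 that rose, with 0 that fell, where 15.9% of all genes were called. After quantile normalization and with equal medians 2 rose and 1 fell, and with the fit limited to these 2 groups 0 rose and 0 fell.

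Sars was at 26.1 to 34.6 TPM in control mice and 20.9 to 30.5 TPM in Cd mice and did not pass (log2 difference -0.14, limma adjusted p = 0.525). No partner gene passed in Se against control, in Cd+Se against Se or in the interaction.

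Of 23 selenoprotein genes, whose mRNAs are the templates the machinery reads, 18 could be tested and moved both ways. In Cd against control 3 rose, 4 fell and 11 did not pass, against 5.82% of all genes that rose and 24.9% that fell, and the list median was 0.02 on the log2 scale beside -0.17 over all genes. After quantile normalization and with equal medians 6 rose and 3 fell. Selenok, a protein of the endoplasmic reticulum membrane, was at 57.8, 43.4, 51.6 and 43.4 TPM in control mice and at 141, 123, 108 and 98.3 TPM in Cd mice, every Cd mouse above every control mouse. It rose by 1.24 on the log2 scale (limma adjusted p = 0.00023). In Cd+Se mice it was at 53.2, 46.8, 53.0 and 57.1 TPM, within the control range, and it fell against Cd by 1.14 (adjusted p = 0.00299). Its interaction of -1.20 (adjusted p = 0.0343) made it the only selenoprotein gene that passed there, a call lost in 9 of 22 alternatives, among them without each control mouse in turn, without Cd mouse 2, without Cd+Se mouse 14 and without Se mouse 39 or 44.

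Selenop, the carrier of selenium in plasma, was at 3616, 3615, 3985 and 3490.4 TPM in control mice, above the 2952, 2627, 1953 and 2868 TPM of the Cd mice. It fell by 0.52 (limma adjusted p = 0.00809) and stayed past the threshold in 15 of 15 alternatives. In Cd+Se mice it was at 3229, 3750.1, 3755 and 3582 TPM, all above the Cd mice. It rose against Cd by 0.48 (limma adjusted p = 0.0248), a call that held in 10 of 15 alternatives. The call was lost without the filter, with the fit limited to these 2 groups, and without Cd mouse 5 or Cd+Se mouse 14 or 15. Selenoi, a phospholipid-synthesising enzyme, fell by 0.56 and Selenot, of the thioredoxin-like selenoproteins, by 0.47 in Cd against control, and both calls were lost without Cd mouse 5 or control mouse 29. The call of Selenoi was also lost without control mouse 28, without the filter and after quantile normalization (limma adjusted p = 0.0537). That of Selenot was also lost without control mouse 27 and without the filter. The call held in 10 of 15 alternatives for Selenoi and in 11 of 15 for Selenot. Msrb1, a methionine sulfoxide reductase, fell by 0.27, a call that held in 6 of 15 alternatives. It was lost with equal medians, with only the groups compared, and without each of control mice 27, 28, 29 and 30 and Cd mice 2, 5 and 6. Gpx4, the glutathione peroxidase that reduces lipid peroxides, and Selenow each rose by 0.46 in Cd against control. Selenow kept its call in 15 of 15 alternatives and Gpx4 in 8 of 15. The call of Gpx4 was lost without the filter and without Cd mouse 1, 2 or 5 or control mouse 28, 29 or 30. In Cd+Se against Cd, 1 selenoprotein gene rose and 1 fell, where 15.9% of all genes were called, and this split was 3 and 1 after quantile normalization and 1 and 5 with equal medians.

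**Figure D5:**
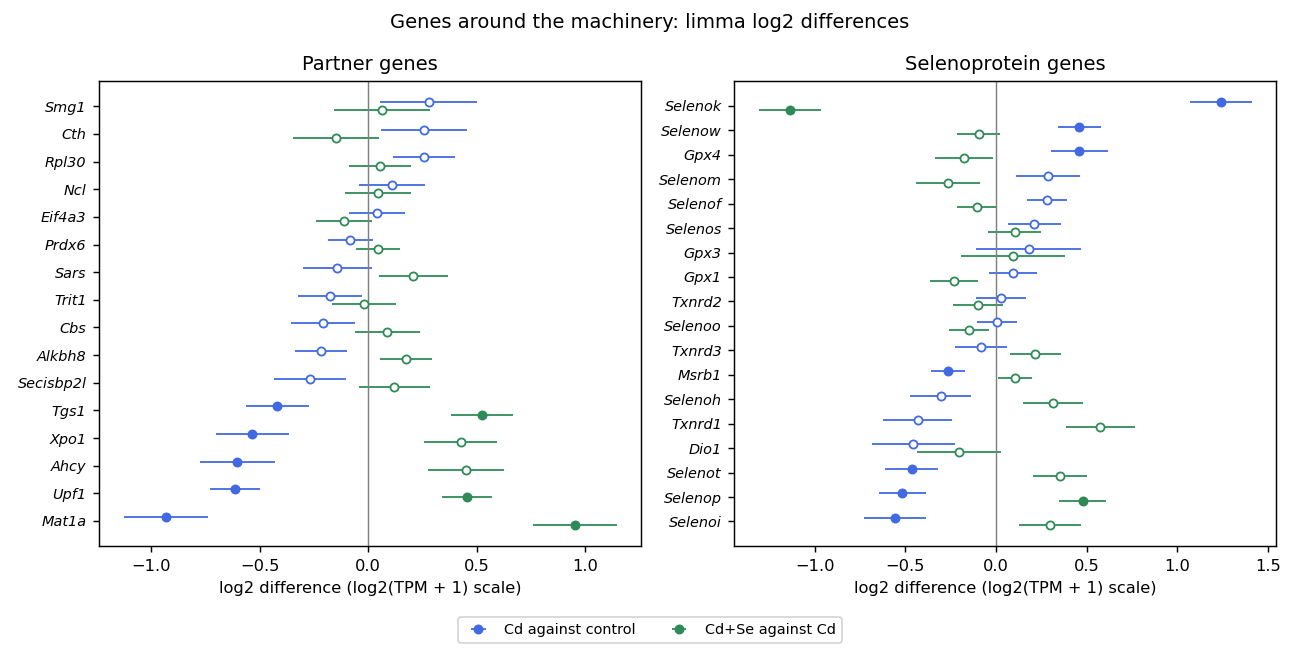
Limma log2 differences with bars of 1 SE for the 16 partner genes (left) and 18 selenoprotein genes (right) tested, in Cd against control (blue) and Cd+Se against Cd (green), ordered by the former, with TPM as deposited. Filled circles mark an adjusted p under 0.05. Among partner genes 5 fell with Cd, which becomes 4 higher and 2 lower with equal library medians, and Selenok stands apart at 1.24 and -1.14.

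The gene whose log2 level was most alike over the 16 libraries differed from member to member. Pearson's r was 0.955 for Scly with Rnpep, 0.954 for Sepsecs with Prpf38a, 0.936 for Sephs1 with Pom121, 0.926 for Sephs2 with Clmn and 0.912 for Eefsec with Papola. It was 0.882 for Pstk with Apool, 0.875 for Secisbp2 with Rtkn and 0.871 for Trnau1ap with Odf2l. These describe the 16 libraries, which share groups and the scaling of each library. Each is the highest r among the 11766 genes tested, so a high value was partly set by the search. With equal library medians the r of the same pairs was 0.907, 0.896, 0.851, 0.701, 0.724, 0.811, 0.589 and 0.795, and Rnpep and Prpf38a were still the most alike to Scly and Sepsecs.

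Promoters of 300 bases from RefSeq (GRCm38.p6), from 250 before to 50 after the start, were found for 7 of the 8 members. Sepsecs had no entry. The core of the metal response element (TGCACNC or TGCGCNC, both strands) was matched in Eefsec, with 2 matches, and in Pstk, with 1, and 25.7% of all 32851 promoters held it. The core of the antioxidant response element (TGACNNNGC, both strands) was matched in none of the 7 and in 12.4% of all promoters. A match describes letters in this window only.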

How the data were processed

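Liver RNA was extracted with TRIzol, selected for poly(A) and sequenced on a NovaSeq instrument. The authors deposited TPM, in a single table of 57010 genes by 16 libraries. The submitters' notes name fastp, HISAT2 and StringTie, without versions or roles, and the build GRCh38, a human name, although the identifiers are mouse Ensembl, so the build of the values is uncertain. The titles name replicates 1 and 2 for each mouse, but the table holds 1 column per mouse.

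Values were compared as log2(TPM + 1) with limma 3.58.1 in R 4.3.3, 1 mean per group over all 16 libraries, an intensity trend in eBayes, and Benjamini-Hochberg adjustment over the 11766 genes averaging 1 TPM or more (threshold 0.05). Fold changes on this scale understate those of low genes. Ratios were compared by an exact two-sided permutation test over 70 arrangements. All 8 members passed the filter. On simulated data 185 of 200 changed genes among 11766 were recovered in Cd against control, with 13 false calls. Of the changed genes, 86 of 100 were recovered at a log2 change of 1 and 99 of 100 at 2. Smaller changes, such as those of the members, and shifts of the library medians were not simulated. Recovery of changes of that size is therefore unknown.

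The members and gene lists were chosen with earlier results of these data known. Named genes are the members, Secisbp2l, Mt1, Mt2 and the gene most alike to each member. By rule, up to 4 genes per list and comparison with the largest called changes are also named. Gpx4, Selenow, Msrb1 and Sars were added after their values were seen, as was Tgs1 in Cd against control. Tgs1 met the rule in Cd+Se against Cd. Seryl-tRNA synthetase was matched under its older symbol Sars, and the tRNA gene itself was unmatched. Of the partner genes, Lrp2 and Lrp8 were under 1 TPM, as were the selenoprotein genes Dio2, Dio3, Gpx2, Selenon and Selenov. Alternatives were a pseudocount of 0.1, no filter, an average of 5 TPM or more, quantile normalization, equal library medians, eBayes without a trend, only the groups compared, and leaving out each mouse in turn. Sequences are from GENCODE M21 and RefSeq.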

Additional observations from a re-analysis of the deposited data

Results flagged for a closer look

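In 7 of 108 groups of 4 mice, 1 mouse lay far from the other 3 (the gap to its nearest neighbour divided by the range of the group was above Dixon's 95% critical value), where chance gives 5.4. In Cd mouse 5 the summed TPM of the 7 members without Sephs2 was 67.4, against 87.8 to 90.1 in the other Cd mice (gap ratio 0.898). Scly was 20.95 TPM in the same mouse, against 26.9 to 27.9 TPM (gap ratio 0.847), and Sars was 20.9 TPM, against 29.9 to 30.5 TPM (gap ratio 0.933). Cd mouse 5 also had the lowest library median of the 16, and the part of this in its values was not tested. Sepsecs was 14.1 TPM in Cd mouse 1, against 11.0 to 11.4 TPM (gap ratio 0.891). Secisbp2l was 22.8 TPM in Se mouse 40, the library with the highest median, against 13.5 to 14.9 TPM (gap ratio 0.849). Gpx4 was 356 TPM in Cd+Se mouse 16, against 280.4 to 290.0 TPM (gap ratio 0.873), and Selenow was 64.5 TPM in control mouse 28, against 77.1 to 79.2 TPM (gap ratio 0.855).

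Selenok had an interaction of Cd and Se of -1.20 on the log2 scale, which passed the limma test (adjusted p = 0.0343). The call was lost in 9 of 22 alternatives, among them without each control mouse in turn, with an adjusted p of up to 0.0882.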

How the results depend on the processing

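No paired analysis was possible because the mouse numbers in the labels are not shared between groups. Sepsecs and Scly stayed past the threshold in Cd against control in 15 of 15 alternatives, and Sephs2 in 9 of 15. For Cd+Se against Cd, the count of 1 member past the threshold became 0 with no filter, after quantile normalization, with equal medians and with only the groups compared. The count of genes that differ moved with no filter to 1131 in Cd+Se against Cd and to 26 for the interaction, with an average of 5 TPM or more to 31 in Cd+Se against Se, and with only the groups compared to 66 in Cd+Se against Cd and 11 in Cd+Se against Se; the interaction count was 524 after quantile normalization and 731 with equal medians. Reversed log2 differences after quantile normalization were 0.11 for Secisbp2, 0.029 for Eefsec and 0.14 for Trnau1ap in Cd against control, -0.071 for Secisbp2 in Cd+Se against Cd, 0.029 for Secisbp2 in Cd+Se against Se, and -0.079 for Secisbp2 and -0.064 for Eefsec in the interaction. With equal medians they were 0.11, 0.040 and 0.18 for Secisbp2, Eefsec and Trnau1ap, -0.064 for both Secisbp2 and Scly in Cd+Se against Cd, 0.032 for Secisbp2 in Cd+Se against Se, and -0.076 and -0.072 for Secisbp2 and Eefsec in the interaction. Summed levels moved with equal medians to 458 and 427 TPM for the 8 members in control and Cd mice, 99.1 TPM for the 7 without Sephs2 in control mice, and 6203 and 6242 TPM for the selenoprotein genes. The cause was not tested.

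Leaving out each mouse in turn, genes that differ ran from 712 to 2123 in Cd+Se against Cd, 28 to 193 in Cd+Se against Se, 0 to 2 in Se against control and 2 to 348 for the interaction, and members called between Cd+Se and Cd from 0 to 1. Log2 differences that changed sign in Cd against control ran from -0.11 to 0.22 for Pstk and -0.068 to 0.0057 for Trnau1ap. In Cd+Se against Cd, Pstk ran from -0.30 to 0.027. In Cd+Se against Se they ran from -0.18 to 0.036 for Eefsec, -0.12 to 0.074 for Secisbp2 and -0.22 to 0.090 for Sephs1. In Se against control they ran from -0.056 to 0.082 for Secisbp2, -0.013 to 0.22 for Sephs1 and -0.0026 to 0.12 for Trnau1ap. The interaction of Secisbp2 ran from -0.0062 to 0.19.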
